A study of Mus musculus with 3 samples.

Results

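Single-cell RNA-sequencing was used to profile tdTomato+ cells sorted from the medial prefrontal cortex of postnatal day 5 mice, with the question of how loss of the transcription factor Tbr1 from layer 5 neurons changes their gene expression. The genes described here are 10 interneuron fate and peptide genes, namely Gad1, Gad2, Dlx1, Dlx2, Dlx6os1, Lhx6, Sp8, Adarb2, Sst and Npy. They were taken by symbol and all 10 were among the 14933 genes of the filtered table of 17396 cells. Of these, 8 were also among the 7174 genes of the neuronal table, and Lhx6 and Adarb2 were not. There were 3 libraries, 1 per genotype. The Tbr1 wild-type library came from Rbp4cre::tdTomato mice, the Tbr1layer5 heterozygous library from Tbr1f/+::Rbp4cre::tdTomato mice and the Tbr1layer5 homozygous library from Tbr1f/f::Rbp4cre::tdTomato mice. All were C57Bl6 animals that carried the same Rbp4-cre driver and Cre-dependent tdTomato reporter, so that each library holds only what that driver, the papain dissociation and the tdTomato sort let through. Neither the reporter nor Cre was among the genes counted. With 1 library per genotype there was no replicate error, no test between genotypes was made, and all intervals given are 95% intervals that cover counting error only.

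Cortical interneurons use GABA, which the enzymes encoded by Gad1 and Gad2 make from glutamate. Their precursors arise in the ganglionic eminences, where the homeobox genes Dlx1 and Dlx2 set the GABAergic fate, and where Dlx6os1, a long noncoding RNA of the Dlx5 and Dlx6 locus, is made. Lhx6 marks interneurons from the medial ganglionic eminence, many of which make the peptides somatostatin (Sst) and neuropeptide Y (Npy). Sp8 and Adarb2 mark interneurons from the caudal ganglionic eminence, and Sp8 also marks olfactory interneuron precursors of the lateral ganglionic eminence. Layer 5 projection neurons are glutamatergic and come from the dorsal telencephalon, where this programme is off.

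The genes lie on mouse chromosomes 2, 6, 12, 13 and 16. Dlx1 (chr2:71528113-71533981, plus strand) and Dlx2 (chr2:71543408-71546754, minus strand) are neighbours on chromosome 2 of mm10. Dlx6os1 (chr6:6820189-6871592, minus strand) is annotated as antisense and overlaps Dlx6. Gad1 and Dlx1 also have annotated antisense partners, and how reads were assigned by strand is not given in the sources used here, so counts of these genes may hold reads of the partner. The sequences below are the 250 bases before a RefSeq transcript start on GRCm38.p6, shown for the peptide genes Sst and Npy and for Dlx6os1 and Sp8, which were detected in the same cells more often than independent detection would give. Capitals mark a match to TAATTA, the core bound by homeodomain proteins, or to TGACGTCA, the cAMP response element. The lines give Sst at chr16:23890845-23891094 on the minus strand, Npy at chr6:49822460-49822709 on the plus strand, Dlx6os1 at chr6:6869534-6869783 on the minus strand and Sp8 at chr12:118847309-118847558 on the plus strand. Of 2 starts listed for Dlx6os1 and 3 for Sp8, the one with most matches is shown, and the others held 1 match for Dlx6os1 and 0 for Sp8.
Sst: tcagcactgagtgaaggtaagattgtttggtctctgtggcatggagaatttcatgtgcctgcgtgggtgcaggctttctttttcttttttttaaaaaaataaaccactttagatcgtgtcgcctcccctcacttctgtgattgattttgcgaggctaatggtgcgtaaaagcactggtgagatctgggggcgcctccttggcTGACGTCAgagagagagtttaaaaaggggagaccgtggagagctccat
Npy: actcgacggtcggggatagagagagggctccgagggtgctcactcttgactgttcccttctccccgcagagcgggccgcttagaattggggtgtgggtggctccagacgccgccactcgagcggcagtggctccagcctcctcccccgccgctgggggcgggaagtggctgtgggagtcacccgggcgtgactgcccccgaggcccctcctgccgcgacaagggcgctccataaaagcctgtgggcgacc
Dlx6os1: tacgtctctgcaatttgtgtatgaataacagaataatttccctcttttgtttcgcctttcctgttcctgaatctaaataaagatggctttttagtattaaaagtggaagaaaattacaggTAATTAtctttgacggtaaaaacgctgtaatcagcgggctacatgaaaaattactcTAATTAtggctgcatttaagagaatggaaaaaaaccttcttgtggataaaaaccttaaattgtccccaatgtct
Sp8: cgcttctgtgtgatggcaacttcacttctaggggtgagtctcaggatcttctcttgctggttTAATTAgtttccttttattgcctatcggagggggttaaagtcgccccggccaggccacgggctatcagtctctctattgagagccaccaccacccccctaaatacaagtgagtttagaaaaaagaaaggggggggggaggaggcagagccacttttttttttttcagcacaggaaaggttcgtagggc
Over windows from 250 bases before to 50 after the start, searched on both strands, TGACGTCA was found in 1 of the 15 windows of these genes, that of Sst, where it begins 48 bases before the start, and in 1.79% of all 32851 windows. TAATTA was found in 4 of the 15 windows, belonging to Adarb2, Dlx6os1 and Sp8, and in 5.29% of all windows. TGACTCA, bound by AP-1 factors, was found in 1 window of Lhx6 and in 5.20% of all windows. No 2 motif matches overlapped, and a match describes the letters only.

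Cells were grouped by the deposited lists. Cells of the neuronal list retained for the differential expression analysis are called typical, those of the list not retained are called atypical, and filtered cells outside the list are called other. The typical group held 1778 wild-type, 5357 heterozygous and 3935 homozygous cells with medians of 1901, 1743 and 1375 UMIs. The atypical group held 304, 107 and 462 cells, and the other group 2873, 1398 and 1182 cells with medians of 2489, 2541.5 and 1752.5 UMIs. The authors picked the neuronal clusters by the markers Nrgn, Rorb and Cnih2. They clustered these cells again after a filter to the 7174 genes of the neuronal table. Lhx6 and Adarb2 thus had no part in setting atypical cells apart. Since other and typical cells were sorted by neuronal markers, differences between the groups are descriptions. Among all cells 140 barcodes occurred in more than 1 library, and no doublet caller was run. The targeted gene Tbr1 had 101, 320 and 136 UMIs in the typical cells of the wild-type, heterozygous and homozygous libraries, or 27.5, 30.7 and 22.4 UMIs per 1000000 UMIs (CPM). The deletion removes exons upstream of the 3′ end that was sequenced, so these values do not check the deletion.

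In typical cells the GABA and fate genes were near or below the level of RNA outside cells. This level was read from empty droplets, taken as barcodes holding at least 100 but fewer than 500 UMIs, which numbered 44157, 40520 and 55787 in the wild-type, heterozygous and homozygous libraries. Gad1 was at 16.6, 18.1 and 15.3 CPM in typical cells of the 3 libraries in that order, against 19.6, 22.4 and 18.5 CPM in empty droplets. Gad2 was at 18.5, 11.2 and 10.9 CPM, against 34.4, 18.3 and 20.9 CPM in empty droplets. The typical over empty ratio of Gad2 was thus below 0 on the log2 scale in every library, at -0.89 (-1.28 to -0.53), -0.71 (-1.06 to -0.35) and -0.94 (-1.35 to -0.55). Against barcodes holding at least 10 but fewer than 100 UMIs, the wild-type ratio was 0.29 (-1.13 to 2.21) for Gad2 and 0.18 (-1.24 to 2.10) for Dlx1, each resting on 4 droplet UMIs.

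The Dlx genes and Sp8 were likewise lower in typical cells than in these droplets. Dlx1 in typical cells was at 17.2, 11.8 and 9.55 CPM, against 36.2, 24.0 and 19.8 CPM in empty droplets. Dlx2 was at 10.4, 5.38 and 6.75 CPM, against 28.3, 18.0 and 19.4 CPM. Dlx6os1 was at 11.2, 4.70 and 7.08 CPM, against 32.9, 16.6 and 18.5 CPM. All 3 were lower in typical cells than in empty droplets of the same library, with log2 ratios from -1.82 to -1.02. Sp8 was at 18.0, 4.03 and 6.42 CPM in typical cells, which is -1.44, -2.11 and -1.51 on the log2 scale relative to empty droplets. For the sum of Gad1, Gad2, Dlx1, Dlx2 and Dlx6os1 the log2 ratio was -1.04, -0.95 and -0.97, while a list of 7 excitatory neuron genes stood at 0.72, 0.53 and 0.62 by the same measure.

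Lhx6 and Adarb2 could not be placed above or below empty droplets, and the ratios of the peptides differed between libraries. Lhx6 in typical cells was at 6.54, 7.01 and 6.91 CPM, against 5.94, 9.28 and 6.21 CPM in empty droplets, and the interval of the ratio held 0 in each library. Adarb2, which encodes an RNA-editing family protein, had only 5, 10 and 8 UMIs in typical cells. Sst was at 237, 175 and 181 CPM in typical cells, against 217, 319 and 210 CPM in empty droplets. Npy was at 256, 280 and 401 CPM in typical cells, against 240, 322 and 328 CPM. The typical over empty ratio of Sst was 0.13 (0.02 to 0.24) in the wild-type library but was below 0 in both mutant libraries, at -0.87 (-0.95 to -0.78) and -0.21 (-0.31 to -0.11). That of Npy was 0.09 (-0.01 to 0.20), -0.20 (-0.27 to -0.12) and 0.29 (0.22 to 0.36). These ratios depended on which droplets were taken as empty. Against barcodes of at least 10 but fewer than 100 UMIs, both peptides lay below 0 in every library, with Sst at -0.89 (-1.17 to -0.59), -1.73 (-1.84 to -1.62) and -1.05 (-1.32 to -0.77) and Npy at -1.28 (-1.52 to -1.04), -0.74 (-0.85 to -0.63) and -0.53 (-0.75 to -0.31).

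**Figure D1:**
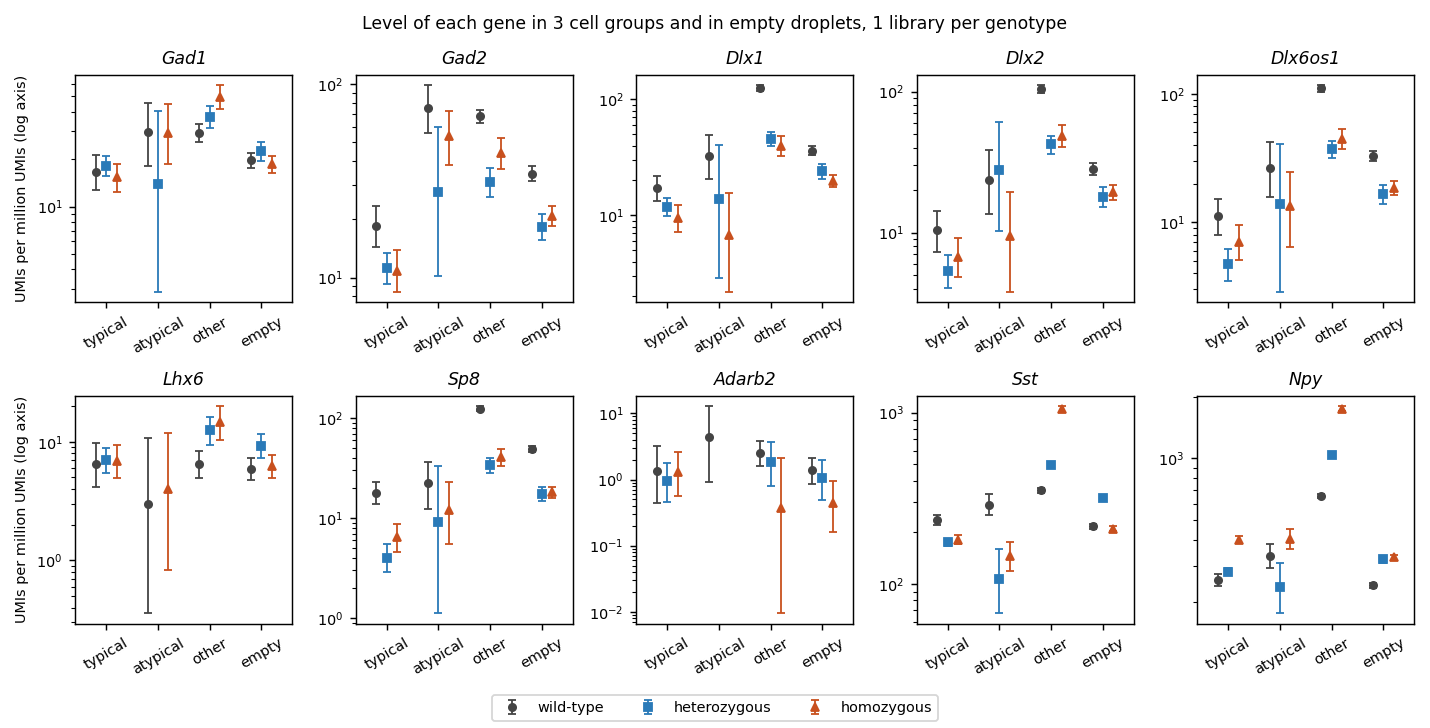
Level of each gene in typical, atypical and other cells and in empty droplets (x axis), in CPM on a log axis that differs between panels, with 1 point per library and bars for 95% Poisson intervals. Points with 0 UMIs are left out. The Dlx genes, Gad2 and Sp8 are lowest in typical cells (Dlx1 in atypical cells of the homozygous library) and highest in other cells (Gad2 in atypical cells of the wild-type and homozygous libraries), and the 3 libraries of Sst and Npy spread most in other cells.

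The share of typical cells with a UMI was low for the same genes. Gad1 was detected in 3.43%, 3.45% and 2.34% of typical cells of the wild-type, heterozygous and homozygous libraries, and the other Gad and Dlx genes in 0.915% to 3.77%. As cells that should lack these genes, other cells with at least 10 UMIs of a microglia list (184, 115 and 65 cells, medians of 3227.5, 2604 and 2186 UMIs) or of an endothelial list (279, 91 and 137 cells, medians of 3331, 3201 and 2634 UMIs) were used. The 5 Gad and Dlx genes were detected in 0% to 4.89% of these reference cells, which had more UMIs than typical cells. Gad1 was detected in 2.72%, 1.74% and 0% of microglia-list cells and in 1.43%, 1.10% and 1.46% of endothelial-list cells. Its share in typical cells was thus above both references but within the counting interval of at least 1 of them in each library, while its level was not above that of empty droplets. In typical cells 90.2% to 100% of the UMIs of each of these 5 genes came as 1 UMI in a cell, and no typical cell held more than 2.

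The peptides were detected more widely. Sst was detected in 24.7%, 19.7% and 16.3% of typical cells, against 17.4%, 13.0% and 4.62% of microglia-list cells and 10.4%, 9.89% and 6.57% of endothelial-list cells. With every cell thinned to 1000 UMIs, the share of typical cells with Sst was 15.0%, 12.1% and 12.2%. Npy was detected in 22.8%, 23.7% and 25.1% of typical cells, against 13.0%, 18.3% and 16.9% of microglia-list and 12.9%, 13.2% and 17.5% of endothelial-list cells. Thinned, the share of typical cells with Npy was 12.1%, 14.6% and 18.8%. The reference cells also held up to 18 UMIs of Npy and up to 16 of Sst in a cell. The share of typical cells with each peptide was thus above that of both references of the same library. For Sst in the heterozygous library it lay within the microglia-list counting interval (7.49 to 20.6). So did that for Npy in the heterozygous (11.7 to 26.5) and homozygous (8.76 to 28.3) libraries. Peptide levels in typical cells were above or below those of empty droplets depending on the library and on the droplets taken.

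In the wild-type library Dlx1, Dlx2, Dlx6os1 and Sp8 had their highest level in other cells, as did Sst and Npy, with most of their UMIs in a few cells. Other over typical ratios there had a median of 0.82 on the log2 scale over all genes tested. A summed level cannot tell fewer cells of a type from less RNA per cell. In the wild-type library Dlx1 had 1082 UMIs and 126 CPM in other cells, against 17.2 CPM in typical cells, a log2 ratio of 2.87 (2.50 to 3.26). In the heterozygous library Dlx1 was at 45.9 CPM and in the homozygous library at 39.8 CPM in other cells, with ratios of 1.96 (1.63 to 2.29) and 2.06 (1.59 to 2.55). Dlx2 reached 104, 42.1 and 48.5 CPM in other cells, with ratios of 3.33, 2.97 and 2.84. Dlx6os1 reached 110, 37.1 and 44.7 CPM, with ratios of 3.30, 2.98 and 2.66. The 3 Dlx locus genes were thus all higher in other than in typical cells of every library, and in other cells each was highest in the wild-type library.

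Sp8, Gad1 and Gad2 followed, and Lhx6 was scarce. Sp8 was at 124, 33.6 and 40.6 CPM in other cells, with ratios over typical cells of 2.79, 3.06 and 2.66. Gad2 was at 68.1, 31.0 and 44.0 CPM, with ratios of 1.88, 1.47 and 2.02. Gad1 was at 29.4, 37.3 and 50 CPM, with ratios of 0.82, 1.04 and 1.71. Lhx6 was at 6.5, 12.5 and 14.7 CPM, with ratios of -0.01 (-0.72 to 0.75), 0.84 (0.30 to 1.36) and 1.08 (0.42 to 1.75). Adarb2 had 22, 8 and 1 UMIs in other cells. Sst was at 352, 495 and 1053 CPM in other cells and Npy at 656, 1039 and 1750 CPM, so that the peptides were highest in the homozygous library, whereas the Dlx genes, Gad2 and Sp8 were highest in the wild-type library.

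Counted with at least 30 UMIs over both groups and a ratio past 2-fold, 6 of 9 genes were higher in other than in typical cells of the wild-type library, beside 43.6% of the 12365 genes tested. In the heterozygous library 8 of 9 were higher, beside 24.3% of genes, and in the homozygous library 9 of 9, beside 32% of genes. No gene of the 10 was counted as lower, beside 3.21%, 0.328% and 1.65% of genes. The median log2 ratio over the 10 genes was 1.62, 1.70 and 2.09, against 0.82, 0.40 and 0.53 over all genes tested. Without the 5% of cells with most UMIs, the counts in the heterozygous and homozygous libraries were 5 and 5. The share of all genes was not counted under that setting. Without cells that held 20 or more UMIs of the peptide, a choice made after seeing the data, other over typical cells stood below 0 in all 3 libraries, at -1.12 (-1.27 to -0.96), -0.53 (-0.67 to -0.38) and -0.32 (-0.49 to -0.14) for Sst and at -1.03 (-1.18 to -0.87), -0.42 (-0.55 to -0.29) and -1.04 (-1.21 to -0.87) for Npy.

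The wider interneuron programme was read from a list of 50 further genes, of which 48 were in the table. Higher in other cells were 21 of 37 countable genes in the wild-type, 22 of 36 in the heterozygous and 20 of 32 in the homozygous library, beside 43.6%, 24.3% and 32% of all genes tested. In the wild-type library 1 was lower, the peptide gene Cck at -1.41. By sublist, 1, 2 and 2 of 4 GABA handling genes were higher, as were 3 of 4 Lhx6-lineage factors in each library, 3 of 5, 2 of 4 and 1 of 3 Sp8-lineage factors, 1 of 2, 2 of 2 and 1 of 1 migration receptors, 7 of 13, 8 of 14 and 8 of 13 peptide and subtype genes and 0 of 3, 0 of 3 and 1 of 2 peptide receptors. The GABA handling genes and peptide receptors of the wild-type library thus lay under the share of all genes. Of the fate factors shared by interneurons, Dlx5 and Sp9 among them, 6 of 6, 5 of 5 and 4 of 5 were higher. Sp9, a relative of Sp8, had log2 ratios of 3.66, 2.41 and 2.55, and Dlx5 of 2.73, 1.88 and 2.40. Maf and Nr2f2, factors of the medial and caudal eminences, stood at 2.17, 2.06 and 2.32 and at 2.55, 1.96 and 1.82. Other cells also include microglia-list and endothelial-list cells, and the part of cells that are not interneurons in these ratios was not tested.

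Of the peptide and subtype genes, those past 2-fold in all 3 libraries with the largest lowest ratio were Ndnf (3.92, 6.06 and 4.0), Reln (4.33, 3.48 and 2.78), the enkephalin gene Penk, which striatal neurons also make (2.11, 3.40 and 3.08), Synpr (1.5, 1.30 and 1.22) and Pnoc (1.90, 1.87 and 1.19). Reln is also made by Cajal-Retzius cells and Ndnf by vascular cells, and their part in these ratios was not tested. The fold of Ndnf in the heterozygous library rests on 3 UMIs in typical cells, 83 UMIs in other cells and an interval of 4.46 to 8.37.

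Detection of several genes in the same cell separated the groups more sharply than the levels did. Cells were scored for how many of Gad1, Gad2, Dlx1, Dlx2 and Dlx6os1 had a UMI, with Lhx6, Sp8, Adarb2, Sst and Npy kept out of the score. Among other cells, 685 wild-type, 139 heterozygous and 116 homozygous cells held 2 or more, or 23.8% (22.3 to 25.4), 9.94% (8.42 to 11.6) and 9.81% (8.18 to 11.7). Among typical cells, 24, 26 and 14 did, or 1.35%, 0.485% and 0.356%. Among atypical cells, 14, 3 and 8 did, or 4.61%, 2.80% and 1.73%. Among reference cells, 3, 0 and 0 of the microglia-list cells and 1, 1 and 0 of the endothelial-list cells did. Cells with 2 or more were therefore mostly other cells. Other cells with 2 or more made up 13.8% of all wild-type cells, against 2.03% of heterozygous and 2.08% of homozygous cells.

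The wild-type library had the largest share at equal depth too. With each cell thinned to 1000 UMIs the share of other cells with 2 or more was 10.6%, 4.08% and 3.98%. In cells that were not thinned, 12.2%, 5.08% and 4.15% held 3 or more. Just outside the limit, 447, 164 and 108 other cells held exactly 1 of the 5 genes, and just inside it, 335, 68 and 67 held exactly 2. All 5 were detected in 20, 4 and 2 other cells and in no typical or atypical cell. Of the barcodes of other cells with 2 or more, 15 also occurred in another library.

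**Figure D2:**
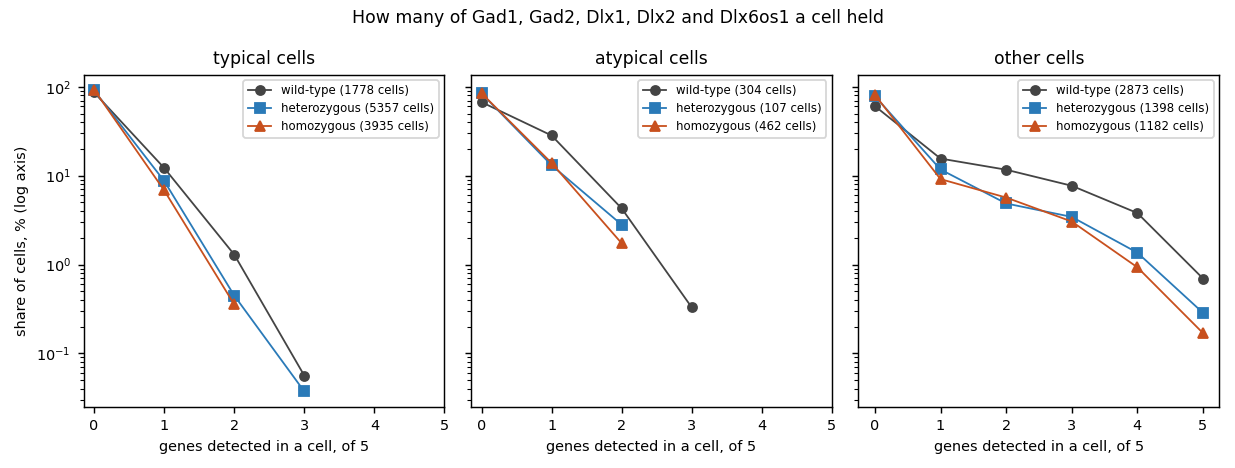
Share of cells in % on a log axis (y) by the number of Gad1, Gad2, Dlx1, Dlx2 and Dlx6os1 detected in the cell (x), for typical, atypical and other cells, with 1 line per library. Counts of 0 cells are left out. In typical cells the share fell steeply, to at most 1.35% of cells with 2 or more, while 20, 4 and 2 other cells held all 5 genes.

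Pairs of genes were then compared with the number of cells expected if they were detected independently, within other cells of each library. Dlx1 and Dlx2 were found together in 311 wild-type, 49 heterozygous and 38 homozygous cells, 2.81 (2.50 to 3.14), 5.54 (4.09 to 7.32) and 6.60 (4.67 to 9.06) times the number expected. Dlx6os1 and Sp8 were found together in 319, 46 and 43 cells, 3.25 (2.90 to 3.63), 8.14 (5.96 to 10.86) and 9.34 (6.76 to 12.59) times the number expected. This was the highest ratio among pairs of the 5 shared genes and Sp8 in each library. Since the group holds many kinds of cell, any genes of 1 kind would be found together, and the ratio is bounded by the share of cells that hold the gene.

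Lhx6 was found with Gad1 and with Sst more often than expected, and shares of Gad2 and Dlx1 in cells with Lhx6 are given below. Lhx6 and Gad1 were found together in 19, 13 and 18 cells, 5.72 (3.44 to 8.93), 3.66 (1.95 to 6.25) and 9.58 (5.68 to 15.15) times the number expected. Lhx6 and Sst were found together in 26, 20 and 24 cells, 3.46 (2.26 to 5.06), 2.54 (1.55 to 3.93) and 5.70 (3.65 to 8.48) times the number expected. Lhx6 and Sp8 shared only 3, 1 and 1 cells, 0.35, 0.40 and 0.58 of the number expected, with intervals that reached 1.02, 2.24 and 3.23. Lhx6 and Dlx6os1 shared 9, 2 and 2 cells, 1.02, 0.64 and 0.98 of the number expected. Sst and Npy were found together in 125, 115 and 69 cells, 1.83 (1.52 to 2.18), 1.86 (1.54 to 2.24) and 2.16 (1.68 to 2.74) times the number expected, and in typical cells in 146, 378 and 242, 1.46, 1.51 and 1.5 times the number expected.

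**Figure D3:**
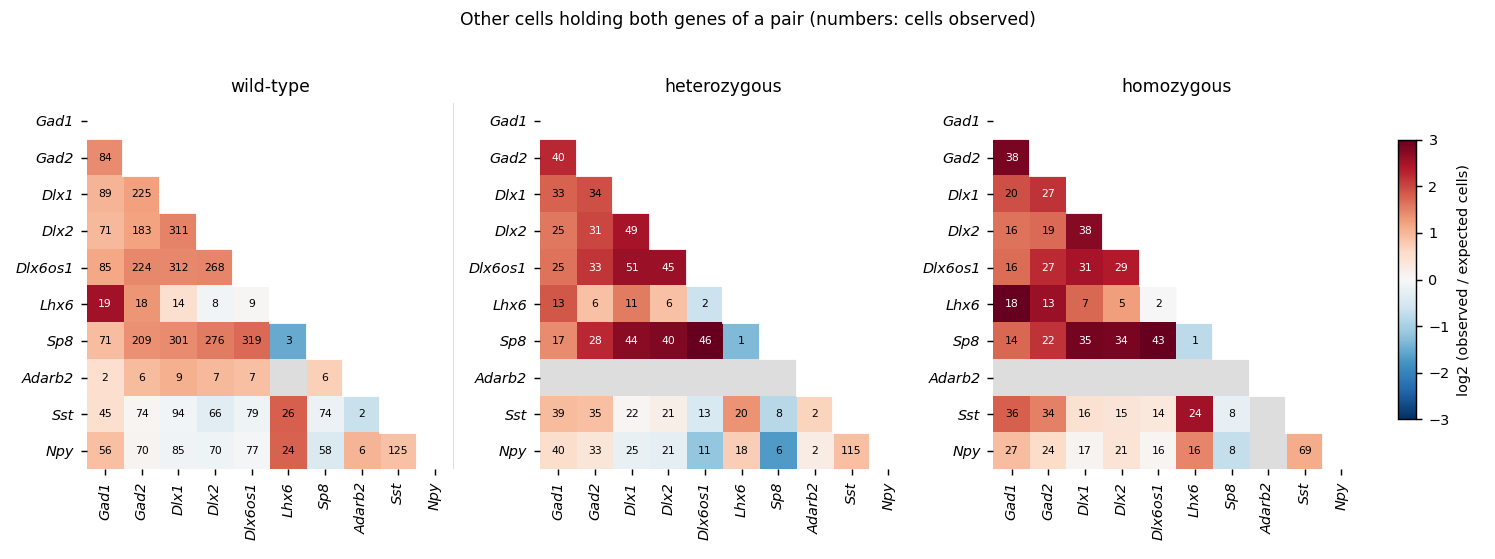
Pairs of genes detected in the same other cell, with 1 panel per library. Colour gives the log2 of observed over expected cells, numbers give the cells observed, and grey marks pairs with under 1 cell expected. Gad and Dlx genes and Sp8 form a block of high ratios. Lhx6 is paired with Gad1, Sst and Npy, among others, and shares 3, 1 and 1 cells with Sp8.

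Cells with 2 or more of the 5 shared genes fell mostly into cells with Sp8, cells with Lhx6 and cells with neither. Of the 685, 139 and 116 such other cells, 383, 52 and 50 held Sp8 and no Lhx6, or 55.9%, 37.4% and 43.1%. Only 21, 11 and 11 held Lhx6 and no Sp8, or 3.07% (1.91 to 4.65), 7.91% (4.02 to 13.7) and 9.48% (4.83 to 16.3). Both were held by 2, 0 and 1 cells, and neither by 279, 76 and 54. The Lhx6 cells had more UMIs, with medians of 5262, 4775 and 6803, than the Sp8 cells, with medians of 2292, 2060 and 1538.5, so that detection is easier in the former. Cells with neither had medians of 2421, 3304 and 2195 UMIs and may hold either gene undetected, so these shares are of cells with a detected UMI only.

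The 2 kinds of cell were both chosen by the score over Gad1, Gad2, Dlx1, Dlx2 and Dlx6os1. They differed in how often they held Gad1, Dlx2 and Dlx6os1. Among Lhx6 cells Gad1 was detected in 76.2%, 81.8% and 100% and Sst in 61.9%, 81.8% and 100%, but Dlx6os1 in only 23.8%, 18.2% and 18.2%. Among Sp8 cells, which had fewer UMIs, Dlx6os1 was detected in 77.3%, 78.8% and 78% but Gad1 in 17.5%, 30.8% and 26%, and Sst in 12.5%, 9.62% and 12%. Dlx2 was detected in 23.8%, 27.3% and 27.3% of Lhx6 cells and in 67.1%, 65.4% and 58% of Sp8 cells. Since each cell had to hold 2 or more of the 5 scored genes, cells with little Gad1 entered mostly through the others. The shares of these genes are thus tied to each other by the choice of cells, and the part of depth in them was not tested. Gad2 and Dlx1 were common in both kinds. Gad2 was detected in 66.7%, 45.5% and 90.9% of Lhx6 cells and in 52.2%, 50% and 42% of Sp8 cells. Dlx1 was detected in 52.4%, 72.7% and 45.5% of Lhx6 cells and in 72.6%, 76.9% and 66% of Sp8 cells. At least 5 UMIs of Sst were held by 13, 9 and 10 of the Lhx6 cells and by 0, 0 and 1 of the Sp8 cells. Sst made up 10840, 12586 and 18679 CPM of the RNA of Lhx6 cells, against 53.0, 45.5 and 632 CPM in Sp8 cells, where 56 of the 62 UMIs behind the last value came from 1 cell. Npy was at 21709, 18092 and 21240 CPM in Lhx6 cells, against 56.8, 15.2 and 316 CPM in Sp8 cells, with 26 of the last library's 31 UMIs in 1 cell. Only 6 of 21, 4 of 11 and 5 of 11 Lhx6 cells held 5 or more Npy UMIs. Cells with neither Lhx6 nor Sp8 included 9, 8 and 12 with at least 5 UMIs of Sst and 5, 4 and 4 with at least 5 of Npy. Peptide-rich cells were thus also found among cells in which no Lhx6 UMI was detected. Other cells with Lhx6 held only 1.19, 1.23 and 1.30 of its UMIs each on average. A cell without a Lhx6 UMI therefore cannot be said to lack Lhx6.

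Genes outside the list set the same cells apart. Meis2, a homeobox gene of the lateral ganglionic eminence and olfactory bulb lineage, was detected in 84.9%, 86.5% and 70% of Sp8 cells and had 4, 1 and 0 UMIs in Lhx6 cells. Pax6, a transcription factor gene of olfactory interneurons, was detected in 42.3%, 36.5% and 38% of Sp8 cells. Etv1, which marks layer 5 of the cortex as well as olfactory interneurons, was detected in 47.8%, 40.4% and 38% of Sp8 cells at 285, 250.4 and 255 CPM, against 5.85%, 4.27% and 4.70% of typical cells at 30.2, 22.8 and 31.6 CPM. Igfbpl1, a gene of young neurons, was detected in 90.9%, 88.5% and 76% of Sp8 cells and had 9, 0 and 1 UMIs in Lhx6 cells. Th, made by dopaminergic olfactory neurons, had 0 UMIs in Sp8 cells of all 3 libraries. Vip, the peptide of many caudal eminence interneurons, had 1, 31 and 36 UMIs in Sp8 cells, in 1, 3 and 1 cells. The serotonin receptor gene Htr3a was detected in 12.3%, 15.4% and 2% of Sp8 cells and in no Lhx6 cell.

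Marker lists summed over these cells gave the same split. A list of 8 genes of the olfactory and lateral ganglionic eminence lineage was at 1945, 1927 and 1867 CPM in Sp8 cells, where 7 of its 8 genes were detected in each library, and at 257, 190 and 112 CPM in Lhx6 cells. A list of 6 genes of cycling cells was at 1728, 1692 and 1346 CPM in Sp8 cells and at 19, 69.2 and 14.0 CPM in Lhx6 cells. A list of 6 genes of young migrating neurons was at 12120, 12263 and 10996 CPM in Sp8 cells and at 7579, 6198 and 7164 CPM in Lhx6 cells. Excitatory neuron genes were low in both, at 716, 971 and 1204 CPM in Sp8 cells and 865, 675 and 965 CPM in Lhx6 cells, against 2944, 3618 and 4296 CPM in typical cells. Satb1, a factor of the medial eminence lineage, was detected in 52.4%, 63.6% and 72.7% of Lhx6 cells, against 12.5%, 5.77% and 10% of Sp8 cells.

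**Figure D4:**
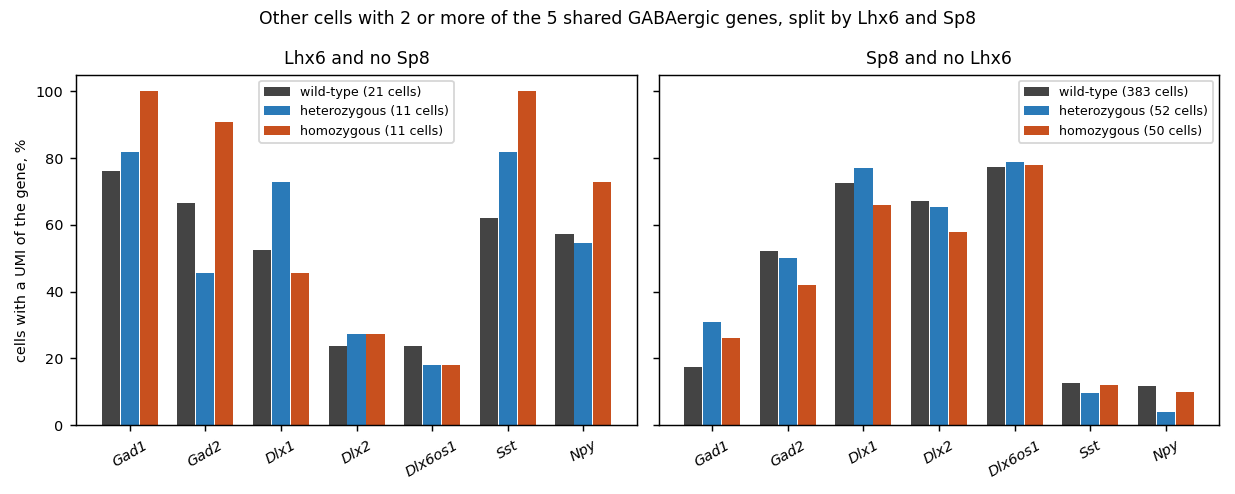
Share of cells in % (y) with a UMI of each gene (x), among other cells with 2 or more of Gad1, Gad2, Dlx1, Dlx2 and Dlx6os1, for cells with Lhx6 and no Sp8 (left) and with Sp8 and no Lhx6 (right). Bars are libraries, and the number of cells stands in the legend. Gad1, Sst and Npy are frequent in Lhx6 cells and Dlx2 and Dlx6os1 in Sp8 cells in all 3 libraries.

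The genes highest in other cells with 2 or more of the 5 shared genes, over the remaining other cells, were ranked by the lowest of the 3 library ratios. The score itself chose Dlx2, Dlx6os1, Dlx1, Gad2 and Gad1, which took ranks 1 to 4 and 6. Sp8 was ranked 5, with log2 ratios of 3.85, 4.77 and 4.56, Sp9 was ranked 7 with 3.55, 4.94 and 3.67, Dlx5 was ranked 8 with 3.47, 4.2 and 3.73, Htr3a was ranked 9 with 3.46, 4.83 and 4.76, and Gpd1, a glycerol phosphate dehydrogenase gene, was ranked 10 with 2.96, 3.24 and 3.53. Sst stood at 885, 2315 and 5377 CPM in these cells and at 194, 278 and 413 CPM in the remaining other cells. Adarb2 was detected in 9, 4 and 1 of them.

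A few cells held most of the peptide RNA. Among other cells, 28 wild-type, 20 heterozygous and 23 homozygous cells held 20 or more UMIs of Sst and accounted for 76.5%, 77.5% and 87.6% of its UMIs. They were 0.975% (0.649 to 1.41), 1.43% (0.876 to 2.20) and 1.95% (1.24 to 2.91) of other cells, and a cell held up to 206, 224 and 319 UMIs. For Npy, 18, 7 and 17 other cells with 20 or more UMIs accounted for 87.0%, 85.1% and 92.4% of its UMIs, with up to 992, 1167 and 1227 in a cell. Cells that passed for both peptides numbered 11, 6 and 13. Without these cells the level of Sst in the remaining other cells was 84.2, 114 and 137 CPM and that of Npy 86.3, 156 and 136 CPM. Typical cells, likewise without those of 20 or more UMIs of the peptide, held Sst at 182, 164 and 170 CPM and Npy at 176, 209 and 279 CPM.

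The cells with 20 or more Sst UMIs were deeply sequenced, with medians of 4894.5, 4758.5 and 5092 UMIs, and held Lhx6 in 14 of 28, 9 of 20 and 14 of 23, but Sp8 in 0, 0 and 1. Besides Sst and Npy, the genes that ranked highest in them included Crhbp, which encodes a binding protein of corticotropin-releasing hormone, Chodl, Nos1, which encodes neuronal nitric oxide synthase, Cort and Penk. Chodl and Nos1 together mark the long-range projecting Sst neurons of the cortex. Cort was at 899, 686 and 803 CPM in cells with 20 or more Sst UMIs, against 25.9, 25.7 and 18.8 CPM in typical cells. In cells with 20 or more Npy UMIs, Chodl was detected in 8 of 18, 4 of 7 and 5 of 17 and Nos1 in 10 of 18, 5 of 7 and 6 of 17. The limit of 20 UMIs, and the genes named in these cells, were chosen after the values were seen.

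Rbp4, the gene whose regulatory sequence drives the Cre of these mice, was ranked 10 in the cells with 20 or more Sst UMIs. It had 30, 44 and 44 UMIs there, or 223, 438 and 368 CPM, and was detected in 15 of 28, 11 of 20 and 14 of 23 cells. In typical cells Rbp4 was at 12.3, 14.7 and 14.3 CPM and in Sp8 cells it had 2, 1 and 2 UMIs. Among Lhx6 cells it was detected in 12 of 21, 9 of 11 and 8 of 11. Sst-rich cells of these libraries thus held the driver gene's own transcript at a higher level than typical cells did.

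Typical cells also held a few peptide-rich cells, which differed from those of the other group. Only 4, 4 and 3 typical cells held 20 or more Sst UMIs, and 7, 14 and 17 held 20 or more Npy UMIs. The Npy-rich typical cells held Chodl in none, Nos1 in 2, 2 and 4, Gad1 in 2, 2 and 3 and Lhx6 in 1 of each library. Their excitatory neuron list stood at 2263, 2231 and 2880 CPM, against 1384, 871 and 2074 CPM in the Npy-rich other cells and 2944, 3618 and 4296 CPM in all typical cells. Their median depth of 1932, 1957.5 and 1349 UMIs was near that of typical cells. Npy-rich other cells had medians of 3481, 5127 and 4401 UMIs, so that detection is easier in them. In typical cells 35.6%, 28.9% and 26.9% of Sst UMIs and 48.1%, 46.5% and 47.7% of Npy UMIs were in cells with 5 or more of them, against 83.1%, 87.1% and 94.4% and 91.3%, 90.6% and 94.2% in other cells.

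Gad2 was past 2-fold higher in atypical than in typical cells of all 3 libraries, with a counting interval that held 0 in the heterozygous library. It was at 75.5, 27.7 and 53.7 CPM in atypical cells, from 51, 6 and 40 UMIs, with log2 ratios over typical cells of 2.03 (1.47 to 2.57), 1.30 (-0.17 to 2.47) and 2.3 (1.70 to 2.89). Gad2 in atypical cells was also above empty droplets in the wild-type and homozygous libraries, at 1.13 (0.69 to 1.55) and 1.36 (0.85 to 1.84) on the log2 scale, and its ratio in the heterozygous library was 0.60 (-0.87 to 1.75). Dlx2 was also higher in atypical than in typical cells, at 1.19 (0.25 to 2.07) in the wild-type and 2.37 (0.86 to 3.58) in the heterozygous library, as was Dlx6os1 in the wild-type library at 1.25 (0.37 to 2.09), while Dlx2 in the homozygous library stood at 0.48 (-0.92 to 1.65). Over empty droplets, Dlx2 in atypical cells stood at -0.26 (-1.08 to 0.46), 0.63 (-0.84 to 1.78) and -1.04 (-2.37 to 0.02) and Dlx6os1 at -0.31, -0.26 and -0.46, with intervals that held 0 in each case. Sp8 and Lhx6 were not above empty droplets in atypical cells of any library. Counted past 2-fold, 3 of 8 genes were higher in atypical than in typical cells of the wild-type library, beside 5.75% of genes tested, 4 of 9 in the heterozygous library, beside 8.41% and with Dlx6os1 and Sp8 among the 4 at 3 and 2 UMIs, and 1 of 9 in the homozygous library, beside 3.44%. Thinned, the heterozygous count was 2 and the homozygous count 2, and without mitochondrial and ribosomal protein genes in the denominator the homozygous count was 4. Shares of all genes were not counted under these settings. Gad1 stood at 0.83, -0.39 and 0.95 and Dlx1 at 0.92, 0.23 and -0.51 over typical cells, and Adarb2 had 3, 0 and 0 UMIs in atypical cells. None was lower, beside 4.8%, 10% and 8.5% of genes. The median log2 ratio over the 10 genes was 0.88, 0.12 and 0.24, against 0.05, 0.00 and -0.11 over all genes tested.

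Markers of striatal projection neurons, which are GABAergic, were also higher in atypical than in typical cells. A list of 14 measured striatal genes was at 778, 855 and 977 CPM in atypical cells, with 14 of 14 detected in each library, against 168, 140 and 185 CPM in typical cells. Ppp1r1b, which encodes the striatal signalling protein DARPP-32, was at 170, 241 and 290 CPM in atypical cells, against 12, 14.9 and 23.0 CPM in typical cells. Within atypical cells, the 43, 6 and 37 cells with a Gad2 UMI had the list at 784, 1545 and 1009 CPM, and those without Gad2 at 777, 809 and 974 CPM. Isl1, a transcription factor of striatonigral neurons, had 16, 3 and 12 UMIs in atypical cells. The part of such cells in the Gad2 level was not tested. Between genotypes in atypical cells, 1 of 4 countable genes was lower past 2-fold in the homozygous over the wild-type library, Sst at -1.0 (-1.35 to -0.65), beside 4.53% of genes, and 2 of 3 in the heterozygous over the wild-type library, Sst at -1.45 and Gad2 at -1.44, beside 8.99%. In the wild-type library 2 of 304 atypical cells held 44.9% of the Sst UMIs, and without cells of 20 or more Sst UMIs, a choice made after seeing the data, the Sst ratios were -0.15 (-0.55 to 0.25) and -0.60 (-1.31 to 0.06), so that neither was past 2-fold. None was higher in either, beside 1.77% and 2.78% of genes, and none of 3 passed in the homozygous over the heterozygous library, beside 5.8% higher and 1.78% lower.

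Between genotypes, Sp8, Gad2, Dlx1 and Dlx6os1 of typical cells were lower in both mutant libraries than in the wild-type library, which both ratios share. Their levels were under those of empty droplets of at least 100 UMIs. Typical cells held Sp8 at 18.0, 4.03 and 6.42 CPM, log2 ratios over wild-type of -2.16 (-2.75 to -1.58) and -1.49 (-2.10 to -0.89). Gad2 had ratios of -0.72 (-1.17 to -0.27) and -0.77 (-1.28 to -0.26), and Dlx1 of -0.54 (-0.99 to -0.08) and -0.85 (-1.39 to -0.31). Those of Dlx6os1 were -1.25 (-1.88 to -0.61) and -0.66 (-1.31 to -0.005), the last interval ending close to 0. Gad1 and Lhx6 had ratios with intervals that held 0 in both mutant libraries, that of Dlx2 held 0 in the homozygous library, and Adarb2 had too few UMIs to be counted. Empty droplets were likewise highest in the wild-type library for Sp8, with 48.8, 17.4 and 18.3 CPM, and for Gad2, with 34.4, 18.3 and 20.9 CPM. The same held for Dlx1, with 36.2, 24.0 and 19.8 CPM, and for Dlx6os1, with 32.9, 16.6 and 18.5 CPM. In barcodes of at least 10 and fewer than 100 UMIs, Sp8 was again highest in the wild-type library, at 41.5, 28.8 and 34.4 CPM. These values rest on 11, 53 and 11 UMIs. The wild-type library was not highest there for Gad2, at 15.1, 33.2 and 15.6 CPM, or Dlx1, at 15.1, 23.4 and 50.01 CPM. Nor was it for Dlx6os1, at 15.1, 31.6 and 18.8 CPM. The wild-type values of Gad2, Dlx1 and Dlx6os1 rest on 4 UMIs each. The part of RNA outside cells in the typical values was not tested.

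Counted past 2-fold, none of 9 genes was higher and 1, Sp8, was lower in typical cells of the homozygous over the wild-type library, beside 1.53% of genes higher and 1.44% lower. In the heterozygous over the wild-type library none was higher and 2 of 9, Sp8 and Dlx6os1, were lower, beside 1.92% higher and 1.91% lower, and in the homozygous over the heterozygous library none passed in either direction, beside 0.812% higher and 0.766% lower. The median log2 ratio over the 10 genes was -0.50, -0.52 and 0.19 in these comparisons, against 0.05, 0.03 and 0.02 over all genes tested. The comparisons share libraries, so their values are given side by side only.

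Sst and Npy of typical cells went in opposite directions. Sst was lower in both mutant libraries, with log2 ratios over wild-type of -0.44 (-0.56 to -0.32) in the heterozygous library and of -0.39 (-0.52 to -0.26) in the homozygous. Those of Npy were 0.13 (0.02 to 0.24) and 0.65 (0.54 to 0.76), and homozygous over heterozygous cells stood at 0.52 (0.44 to 0.60). Neither passed 2-fold. Without typical cells that held 5 or more UMIs of the gene, a choice made after seeing the data, the homozygous over wild-type ratio was -0.21 (-0.37 to -0.05) for Sst and 0.66 (0.51 to 0.81) for Npy. Empty droplets held Npy at 240, 322 and 328 CPM, lowest in the wild-type library, but barcodes of at least 10 and fewer than 100 UMIs held it at 623, 468 and 581 CPM, from 165, 860 and 186 UMIs, highest in the wild-type library.

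Receptors for these peptides were measured at low counts in typical cells, with 5 of 7 listed in the table. Sstr1 had 19, 55 and 15 UMIs, or 5.18, 5.28 and 2.47 CPM, and was past 2-fold lower in the homozygous over the wild-type library at -1.07 (-2.15 to -0.01) and over the heterozygous library at -1.10 (-2.03 to -0.25). Sstr2 had 17, 71 and 47 UMIs, or 4.63, 6.81 and 7.74 CPM. Npy1r had 16, 34 and 18 UMIs, or 4.36, 3.26 and 2.96 CPM. Of the whole wider list, 0 genes were higher and 1 lower of 30 in the homozygous over the wild-type library, beside 1.53% and 1.44% of all genes. In the heterozygous over the wild-type library 2 were higher and 0 lower of 34, beside 1.92% and 1.91%. In the homozygous over the heterozygous library 0 were higher and 3 lower of 34, beside 0.812% and 0.766%. These were Sstr1, already named, and Vip and Lamp5, which were higher in the heterozygous library with 37 and 38 UMIs, against 4 and 5 in the wild-type and 10 and 10 in the homozygous library.

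**Figure D5:**
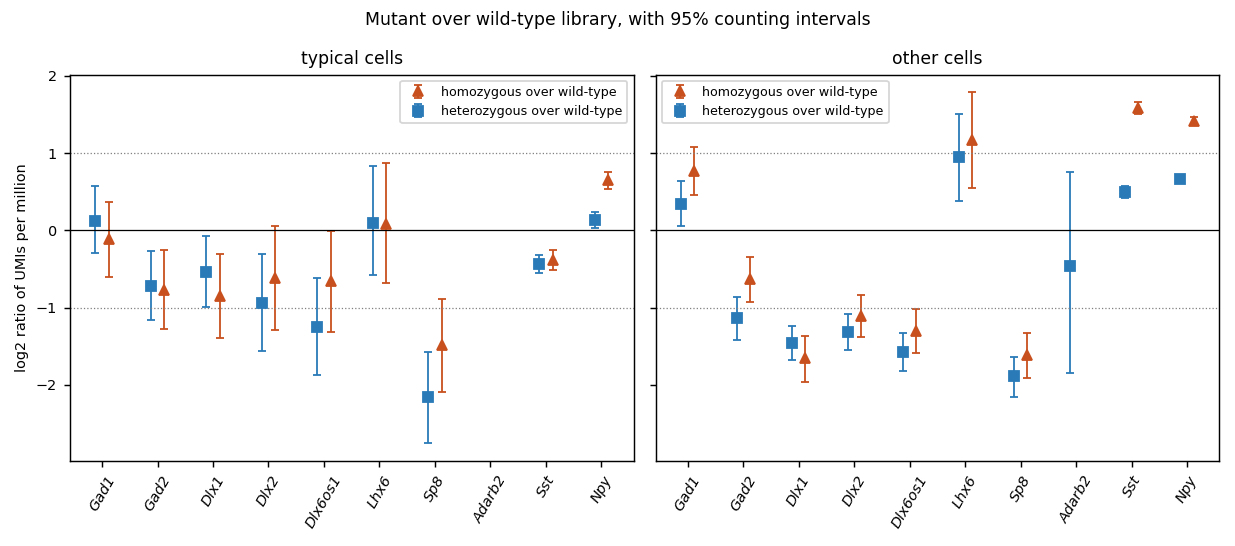
Log2 ratio of CPM (y) of the heterozygous and homozygous over the wild-type library for each gene (x), in typical cells (left) and other cells (right), with bars for 95% counting intervals and dotted lines at 2-fold. Genes with under 30 UMIs over both libraries are left out. In typical cells Sp8 is lowest and Npy of the homozygous library highest, and in other cells Dlx1, Dlx2, Dlx6os1 and Sp8 lie below 0 and Lhx6, Sst and Npy above it in both mutant libraries.

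In other cells the Dlx genes, Gad2 and Sp8 were lower, and Lhx6, Gad1, Sst and Npy higher, in both mutant libraries than in the wild-type library. Gad1 stood at 0.34 (0.05 to 0.64) heterozygous over wild-type and at 0.77 (0.45 to 1.08) homozygous over wild-type, the latter falling to -0.16 as a mean over cells. In the homozygous over the wild-type library 3 of 9 genes were past 2-fold higher, Sst at 1.58 (1.51 to 1.66), Npy at 1.42 (1.36 to 1.47) and Lhx6 at 1.17 (0.54 to 1.79), beside 1.99% of genes. Lower were 4 of 9, Dlx1 at -1.66 (-1.96 to -1.37), Sp8 at -1.62 (-1.92 to -1.33), Dlx6os1 at -1.30 (-1.59 to -1.02) and Dlx2 at -1.11 (-1.39 to -0.84), beside 4.72% of genes. In the heterozygous over the wild-type library none of 10 was higher, beside 2.79% of genes, and 5 of 10 were lower, beside 11.3%, namely Sp8 at -1.89, Dlx6os1 at -1.57, Dlx1 at -1.45, Dlx2 at -1.31 and Gad2 at -1.13. In the homozygous over the heterozygous library Sst was past 2-fold higher at 1.09 (1.01 to 1.17), beside 4.48% of genes, and no gene was lower, beside 0.883%. That call was lost under each of 5 alternatives, namely a denominator without mitochondrial and ribosomal protein genes, a mean over cells, thinning, leaving out the 5% of cells with most UMIs and mean raw UMIs. The median log2 ratio over the 10 genes was -0.87, -0.80 and 0.27, against -0.07, -0.28 and 0.16 over all genes tested.

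The libraries also differed in how many cells of each kind they held, and the part of this in the ratios was not tested. Sp8 cells with 2 or more of the 5 shared genes were 383 of 2873, 52 of 1398 and 50 of 1182 other cells, while Lhx6 cells were 21, 11 and 11 of them. Cells with 20 or more Npy UMIs made up 0.627%, 0.501% and 1.44% of other cells. The counting intervals of the Sst and Npy ratios do not cover this spread of UMIs between cells and are too narrow for it. Without the 5% of cells with most UMIs, none of the 3 genes remained past 2-fold higher in the homozygous over the wild-type library, and the ratio was 0.35 for Sst and 0.14 for Npy. Without cells of 20 or more UMIs of the gene, the homozygous over wild-type ratio was 0.70 (0.51 to 0.88) for Sst and 0.66 (0.47 to 0.84) for Npy, and homozygous over heterozygous it was 0.26 (0.06 to 0.46) for Sst and -0.20 (-0.39 to -0.01) for Npy. Whether the libraries differed in dissection, in sorting or in the cells themselves cannot be told apart with 1 library per genotype.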

How the data were processed

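The members and all gene lists were chosen with earlier results of these data known. tdTomato+ cells of 3 libraries, 1 per genotype, were profiled by droplet-based 3′ single-cell RNA-sequencing. The authors made the deposited counts, UMIs per gene and cell, with Cell Ranger 2.0.1 on mm10 per the submitters' processing notes, and kept cells with at most 30% mitochondrial UMIs, between 500 and 10000 UMIs and between 500 and 3000 genes. No cell of the filtered table held fewer than 1039 UMIs. The authors' neuronal table, although named as raw counts, holds natural log values, of 1 plus the UMIs in 10000 of a cell, and gave only gene and cell names, and their scaled scores were not used.

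UMIs were summed by library and cell group and given per 1000000 UMIs of the group (CPM). Sums have exact Poisson, shares Clopper-Pearson and ratios exact conditional binomial 95% intervals, which cover counting error only. Those of sums and ratios take each UMI as independent and do not cover the spread between cells. A gene was counted in a comparison with at least 30 UMIs over both groups and called past 2-fold. A group at 0 was held to a floor of 3 counts. Because there was 1 library per genotype, the authors' test over cells was not repeated. Expected cells with a pair of genes were the product of both shares and the number of cells. Cells were thinned to 1000 UMIs, which left out 0 cells. UMIs of the 10 genes differed between the filtered table and the library matrices in 0 values, and 0 per-cell columns belonged to other series.

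All 10 genes were open to naming in every result, and those not named are covered by its counts. Of the wider list, up to 12 genes past 2-fold the same way in all 3 libraries were named by their lowest ratio, except for some that are not reported here, with each peptide receptor of at least 30 UMIs in a library, and in addition the 10 genes ranked highest in cells with 2 or more of the 5 shared genes. Other genes named were chosen after their values were seen. Sequences and starts came from RefSeq (GRCm38.p6), which had promoters for all 10 genes. Alternatives were other denominators and thresholds, thinning, leaving out the 5% of cells with most UMIs, edgeR 4.0.16 TMM factors and DESeq2 1.42.0 size factors (R 4.3.3). Scripts ran in Python 3.11.15 with numpy 2.4.6, scipy 1.17.1, pandas 2.3.3 and matplotlib 3.10.9, and were tested on simulated counts.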

Additional observations from a re-analysis of the deposited data

Results flagged for a closer look

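Sst and Npy differed in direction between groups under the same comparison, on the log2 scale of CPM. None of these differences between groups was tested, since there was 1 library per genotype. Atypical over typical cells stood at 0.29 (0.06 to 0.52) for Sst in the wild-type library, where 2 of 304 atypical cells held 44.9% of its UMIs, at -0.72 (-1.38 to -0.13) in heterozygous and at -0.32 (-0.62 to -0.04) in homozygous cells. Homozygous over wild-type, Sst stood at 1.58 in other cells, -0.39 in typical cells and -1.0 in atypical cells. Heterozygous over wild-type, it stood at 0.49 in other cells, -0.44 in typical cells and -1.45 in atypical cells. Without cells of 20 or more Sst UMIs, a choice made after seeing the data, the ratios in atypical cells were -0.15 and -0.60 and that of atypical over typical wild-type cells was -0.18. Npy, heterozygous over wild-type, stood at 0.13 in typical, 0.66 in other and -0.50 in atypical cells, the last of which was 0.82 without cells of 20 or more Npy UMIs. In the wild-type library 2 of 304 atypical cells held 60.2% of the Npy UMIs.

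Typical cells over empty droplets also differed in sign. Sst stood at 0.13 in wild-type, at -0.87 in heterozygous and at -0.21 in homozygous cells, and Npy at 0.29 for homozygous and -0.20 for heterozygous cells. Against barcodes of at least 10 but fewer than 100 UMIs no difference in sign remained, with Sst at -0.89, -1.73 and -1.05 and Npy at -1.28, -0.74 and -0.53 in the wild-type, heterozygous and homozygous libraries.

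Barcodes left out of the filtered table, although within the limits on UMIs, genes and mitochondrial share, held the 5 shared genes too. Of 9099 wild-type, 3390 heterozygous and 2402 homozygous such barcodes, 271, 35 and 28 held 2 or more of Gad1, Gad2, Dlx1, Dlx2 and Dlx6os1, or 2.98% (2.64 to 3.35), 1.03% (0.72 to 1.43) and 1.17% (0.776 to 1.68). In empty droplets the shares were 0.152%, 0.0642% and 0.0376%. The medians of these barcodes were 1072, 1011 and 927 UMIs, above those of empty droplets by definition, and depth was not matched. The lowest depth of the filtered table, 1039 UMIs, was reached by 5141, 1426 and 36 of them. Nearly all those of the homozygous library thus lay under it, unlike those of the wild-type library.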

How the results depend on the processing

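No paired analysis was possible because each genotype had 1 library. Among the main results, 136 values under an alternative were the same as reported and 54 moved, and among values of single genes 555 were the same, 130 moved and 21 reversed. TMM and DESeq2 size factors, run for genotypes in typical cells, moved none of those values. Leaving out the 5% of cells with most UMIs gave 5 and 5 members higher in other than in typical cells (heterozygous, homozygous) and 0 higher in the homozygous over the wild-type or the heterozygous library, where Npy reversed to -0.034. Gad1 in other cells reversed for homozygous over wild-type to -0.16 as a mean over cells and -0.57 without those 5%, and for homozygous over heterozygous to -0.25 as a mean over cells, -0.29 thinned, -0.66 without those 5% and -0.034 as mean raw UMIs. Against droplets with 10 to 99 UMIs, typical over empty reversed in the wild-type library to 0.29 for Gad2, 0.18 for Dlx1 and -0.89 for Sst, and in the homozygous library to -0.53 for Npy. Without cells of 20 or more UMIs of the peptide, added after seeing the data, other over typical reversed to -1.12, -0.53 and -0.32 for Sst and to -1.03, -0.42 and -1.04 for Npy, atypical over typical in the wild-type library to -0.18 and -0.39, and Npy to -0.20 homozygous over heterozygous in other cells and to 0.82 heterozygous over wild-type in atypical cells. The cause was not tested.

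Shares of all genes were counted at the main settings only, so counts of members under alternatives, here and above, have none beside them. Atypical over typical, 5 members passed in the wild-type library at 1.5-fold, 2 in the heterozygous library thinned, and 4 in the homozygous library without mitochondrial and ribosomal protein genes, 2 thinned and 4 at 1.5-fold. In typical cells, homozygous over wild-type, 2 were lower thinned, 5 lower and 1 higher at 1.5-fold, 5 lower as mean raw UMIs and 2 lower with atypical cells added. Heterozygous over wild-type, 4 were lower at 1.5-fold and 4 with atypical cells added, and homozygous over heterozygous, 1 was higher thinned and 2 at 1.5-fold. In other cells, 1 was higher thinned in the homozygous over the wild-type library. Heterozygous over wild-type, 1 was higher without mitochondrial and ribosomal protein genes, 1 thinned and 2 at 1.5-fold. Homozygous over heterozygous, 0 were higher without those genes, as a mean over cells, thinned or as mean raw UMIs, 2 at 1.5-fold, and 1 was lower with no minimum of UMIs.

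The share of other cells with 2 or more of the 5 genes was 12.2%, 5.08% and 4.15% with 3 or more required, 14.2%, 5.29% and 5.08% with at least 4 UMIs and 10.6%, 4.08% and 3.98% thinned, and that of typical cells 0.0562%, 0.0373% and 0%, then 0%, 0.0187% and 0%, and 0.506%, 0.149% and 0.127%. Thinned, Dlx1 and Dlx2 were together at 3.20 times the expected number in the wild-type library, Sst and Npy 2.78 and 2.82 times in the wild-type and heterozygous libraries, and Lhx6 and Sp8 in 0, 0 and 0 cells. Without the 5% of cells with most UMIs, Lhx6 and Sp8 were together in 0 heterozygous and 0 homozygous cells. Depth limits what can be said of Adarb2, with 22, 8 and 1 UMIs in other cells, and of ratios to the 10 to 99 UMI droplets, with 4 UMIs of Gad2 in the wild-type library.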
